A study of Mus musculus with 20 samples.

Results

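The mitochondrial carriers of the SLC25 family are the transport proteins that move nucleotides, phosphate, metabolites, cofactors and metals across the inner mitochondrial membrane. Their transcripts were examined in RNA-seq of the outer eyecup, the retinal pigment epithelium (RPE) with the choroid, of mice that differed in genotype and in dietary vitamin A. Members were the genes whose symbol was *Slc25a* followed by a number and whose values summed to at least 5 over the 20 libraries. Of 47 such genes in the table of 24411 genes, 46 met this rule and 1, *Slc25a54*, was at 0 in every library. The 46 were analysed together with all 18745 genes that passed the same minimum.

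Wild-type (WT) and *Stra6-/-* mice, all on the C57BL/6 strain, were weaned at about 28 days and then kept for 12 weeks on a vitamin A-sufficient (VAS, 4 IU/g) or a vitamin A-deficient (VAD, 0 IU/g) diet. *Stra6* encodes the membrane receptor through which the RPE takes up retinol from the blood. Each of the 4 groups (VAS WT, VAD WT, VAS *Stra6-/-* and VAD *Stra6-/-*) had 5 libraries, and per the study each library held both eyecups of 1 mouse. The labels give neither the sex of the mice nor the part of *Stra6* that the deletion removes.

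Each carrier is built of repeated membrane-spanning units and opens by turns to either side of the membrane. Adenine nucleotide and phosphate carriers supply the ATP synthase and export its product, the aspartate-glutamate and oxoglutarate carriers form the malate-aspartate shuttle that brings reducing equivalents into mitochondria, and the mitoferrins bring in iron. The RPE is known for a high oxidative metabolism, in which it burns fatty acids and lactate and spares glucose for the photoreceptors.

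Some libraries stood apart from their group, and the groups differed in tissue and sex markers. Values are read counts that the authors divided by 1 size factor per library, called normalized values here, from 13331903 to 21878614 reads per library. *Stra6* itself was 2591 ± 149 in VAS WT, 986 ± 415 in VAD WT, 629 ± 49.8 in VAS *Stra6-/-* and 2163 ± 154 in the libraries labelled VAD *Stra6-/-* (mean ± SD, n = 5). The latter were thus above VAD WT, although labelled knockout. The summed RPE markers were 494803 to 539155 there and 30082 to 55366 in VAD WT. Their sum was 109354 to 125448 in VAS WT and 112801 to 118890 in VAS *Stra6-/-*, where *Stra6* was lowest. *Stra6* was not set against RPE content, so its level does not settle the label, and these libraries are called by their label throughout. *Rpe65*, the defining marker of the RPE, was present in every library but rose from a highest value of 5980 in VAS *Stra6-/-* to at least 42395 in the libraries labelled VAD *Stra6-/-*. The summed value of 9 surface-epithelium and cornea markers was 615736 to 747880 in VAS WT, 399542 to 1163350 in VAD WT, 873451 to 908083 in VAS *Stra6-/-* and 23777 to 31323 in the libraries labelled VAD *Stra6-/-*. The Y-linked *Kdm5d* and *Uty* were at 0 in all 5 VAS *Stra6-/-* libraries and present in every other library, and *Xist* was 15320 to 18052 there against 7.69 to 38.4 in VAS WT. The libraries labelled VAD *Stra6-/-* held both *Xist* (3570 to 4280) and the Y-linked *Ddx3y* (741 to 970). In VAD WT, *Xist* was 174 to 11767 and *Ddx3y* 75.2 to 1133. Libraries with both were thus not clearly of 1 sex. Whether each held 1 mouse, as the study states, was not tested, and n counts libraries. The summed value of *Xist*, *Ddx3y*, *Kdm5d*, *Eif2s3y* and *Uty* in VAD WT was 11152 and 12008 in replicates 2 and 4. It was 3268 to 3465 in replicates 1, 3 and 5. Within VAD WT, replicates 2 and 4 stood apart from replicates 1, 3 and 5. Both lay outside the range of the other 3 for 26 of the 46 carriers (56.5%) and for 61.4% of all genes tested, so what rests on VAD WT is also described with replicates 1, 3 and 5 only. That division was seen in these same values, which gives such a description no test of its own. The summed sex-linked genes followed the same division, and so did the tissue marker sums apart from macrophage and brown fat. The fibroblast sum was 130078 and 134027 in replicates 2 and 4 and 42764 to 44159 in replicates 1, 3 and 5. The surface-epithelium sum was 404715 and 399542 against 1132170 to 1163350. The division thus cannot be told apart from a difference in sex or in tissue content.

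Per kilobase of exon, 3 housekeeping carriers made up most of the family's level in every group. *Slc25a5* and *Slc25a4*, the ADP/ATP exchangers ANT2 and ANT1, and *Slc25a3*, the phosphate carrier, together held 56.2% of the summed level per kilobase in VAS WT, 58.3% in VAD WT, 57.2% in VAS *Stra6-/-* and 59.7% in the libraries labelled VAD *Stra6-/-*. *Slc25a5* led in the first 3 groups and *Slc25a4* in the last. Next in the mean over all libraries came *Slc25a39*, needed for mitochondrial glutathione import, at 834 per kilobase, *Slc25a11*, the oxoglutarate-malate carrier, at 833, and *Slc25a1*, the citrate carrier, at 631. The order of *Slc25a39* and *Slc25a11* changed between groups. At the low end, *Slc25a31*, the germ-cell ADP/ATP exchanger, was at 2.91 per kilobase, with values from 0 to 33.0 per library. Between 7 and 8 of the 46 carriers had a group mean under 50, where counting error is large. The summed normalized value of the family was 42570 to 44286 in VAS WT, 41780 to 45040 in VAD WT, 43982 to 47268 in VAS *Stra6-/-* and 51801 to 53564 in the libraries labelled VAD *Stra6-/-*, which did not overlap with the other groups.

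**Figure D1:**
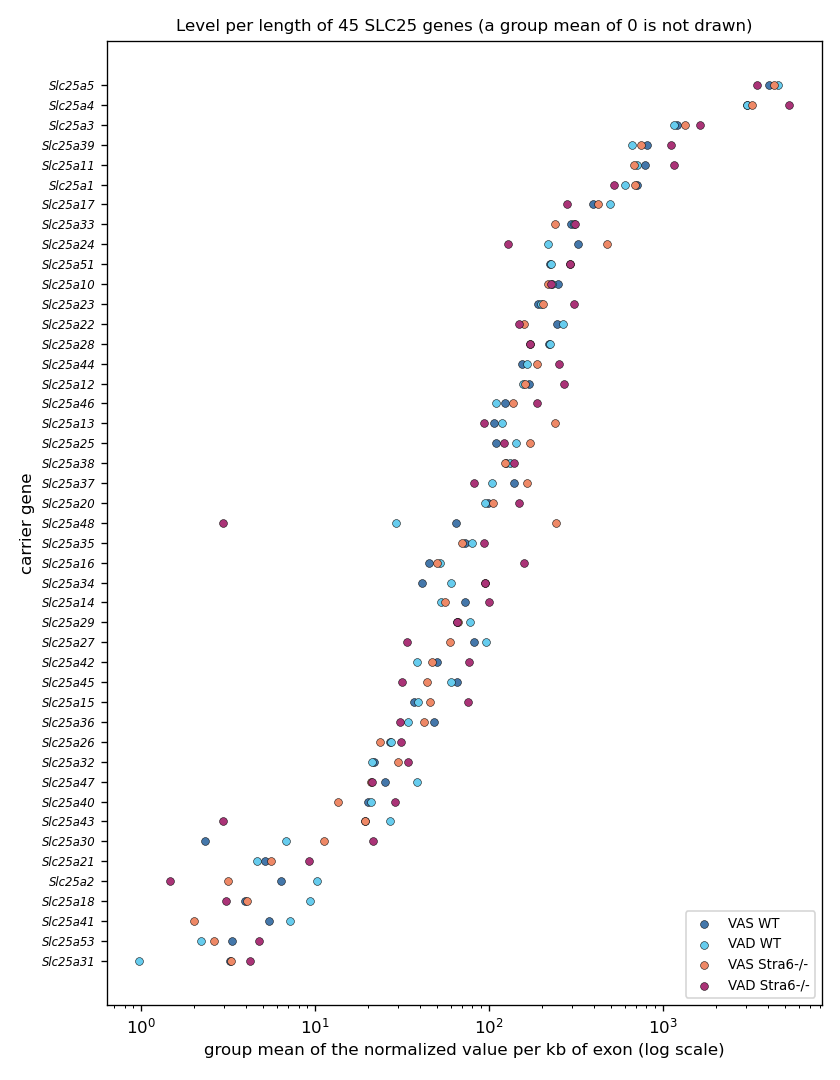
Group means of the normalized value per kilobase of exon (log axis) for 45 of the 46 carriers, 1 row per gene in the order of their mean level and 1 point per group. *Slc25a5*, *Slc25a4* and *Slc25a3* stand at the top, and *Slc25a48* and *Slc25a43* show the libraries labelled VAD *Stra6-/-* far to the left of the other groups.

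The 4 comparisons followed from the design, each with 5 libraries against 5: *Stra6-/-* against WT on either diet, and VAD against VAS in either genotype. The 2 comparisons that hold the libraries labelled VAD *Stra6-/-* share those libraries, and the other pairs share controls in the same way. Differences were tested with limma on log2(normalized value + 1) over all 18745 genes, with Benjamini-Hochberg adjustment, and a gene was called at an adjusted p under 0.05. The log2 fold changes below are on this scale, which understates the changes of low genes, and are given with their standard error (SE).

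Carriers moved in both directions in every comparison. In VAS *Stra6-/-* against VAS WT, 7 carriers were higher and 6 lower, where 15.9% of all genes were called higher and 10.8% lower. In VAD WT against VAS WT, 1 was higher and 4 lower, against 3.29% and 5.52% of all genes. In the libraries labelled VAD *Stra6-/-*, 17 were higher and 11 lower against VAS *Stra6-/-*, where 24.5% and 28.9% of all genes were called. Against VAD WT 20 were higher and 14 lower, where 26.3% and 29.7% of all genes were called. The share of carriers called was thus 28.3%, 10.9%, 60.9% and 73.9% in the 4 comparisons, beside 26.7%, 8.81%, 53.4% and 56.1% of all genes. Most carriers are not low, while all genes include many low ones. Among genes with a mean of at least 10 in a group, 32%, 10.7%, 61.1% and 65% were called, with 13, 6, 28 and 33 carriers. With a log2 fold change beyond 2, the threshold the study used between genotypes, 1 carrier (*Slc25a30*) was called in the first comparison, none in the second, 2 (*Slc25a48* and *Slc25a43*) in the third and 5 (*Slc25a48*, *Slc25a43*, *Slc25a41*, *Slc25a2* and *Slc25a30*) in the fourth, beside 1.1%, 0.405%, 9.11% and 10.4% of all genes. With a log2 fold change beyond 1 the numbers were 4, 0, 6 and 12 carriers, beside 4.93%, 1.74%, 23.9% and 27% of all genes. The median log2 fold change over the 46 carriers was 0.00, 0.02, 0.10 and 0.14, beside 0.02, 0.00, -0.07 and -0.05 over all genes. *Slc25a10*, *Slc25a18*, *Slc25a29*, *Slc25a31* and *Slc25a38* were called in none of the 4.

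**Figure D2:**
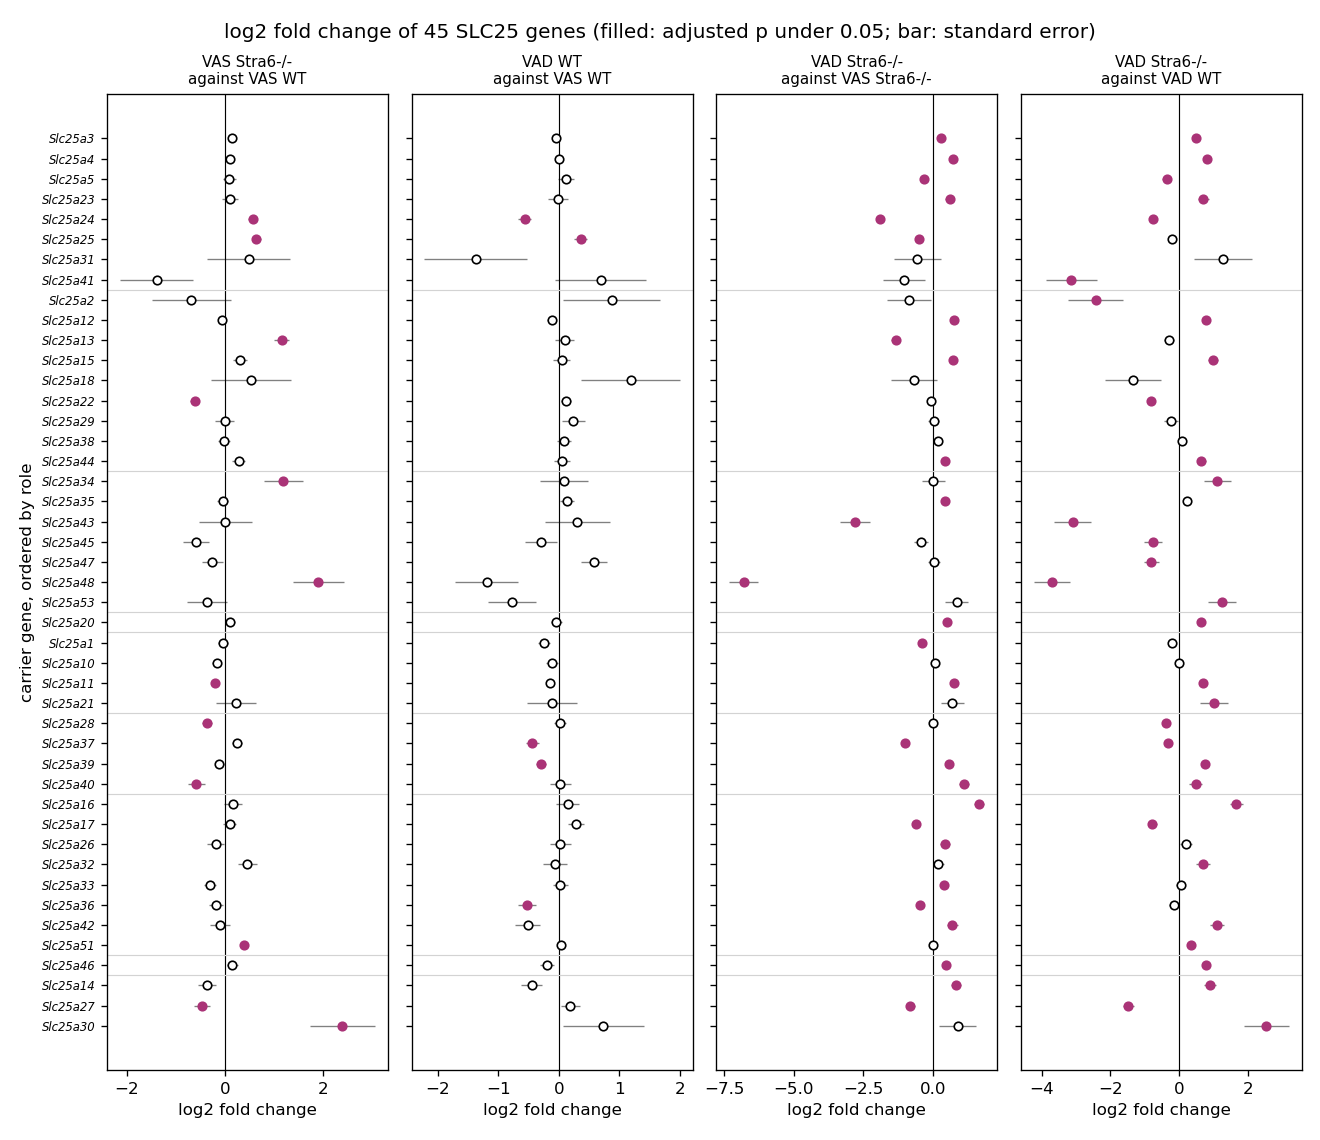
log2 fold change (horizontal axis, scaled separately in each panel) of 45 of the 46 carriers in the 4 comparisons, in the order of their roles, with the SE as a bar and calls at an adjusted p under 0.05 filled. The panels on the left hold few calls (12 and 5), those on the right many (28 and 33), on both sides of 0 and in most roles.

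The ADP/ATP exchangers moved in opposite directions in the libraries labelled VAD *Stra6-/-*, and changed order there per kilobase of exon. *Slc25a4* (ANT1, the isoform of heart and skeletal muscle, chr8:46206797-46211284 of GRCm38, minus strand) had values of 6480, 6662, 7491, 7497 and 7481 in VAS WT and 6804, 7939, 6772, 7503 and 6710 in VAD WT. It had 7759, 7638, 6927, 8011 and 7796 in VAS *Stra6-/-* and 12578, 12028, 12729, 12780 and 12467 in the libraries labelled VAD *Stra6-/-*. The last group lay above every other library, while the first 3 groups overlapped. Its log2 fold change was 0.72 against VAS *Stra6-/-* (SE 0.07, limma adjusted p = 1.34e-08) and 0.81 against VAD WT (SE 0.07, limma adjusted p = 2e-09).

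*Slc25a5* (ANT2, the isoform of proliferating cells, on chromosome X at 36795651 to 36798807) went the other way. Its values were 6486, 6548, 6761, 6896 and 6779 in VAS WT and 7184, 7378, 6781, 7105 and 7257 in VAS *Stra6-/-*. They were 5841, 5469, 5666, 5611 and 5756 in the libraries labelled VAD *Stra6-/-*, below all libraries of both VAS groups. In VAD WT, replicates 1, 3 and 5 had 9205, 8776 and 8848 and replicates 2 and 4 had 5557 and 5103. The log2 fold change was -0.33 against VAS *Stra6-/-* (SE 0.13, limma adjusted p = 0.0299) and -0.36 against VAD WT (SE 0.13, limma adjusted p = 0.019), where the groups overlapped. All groups share 1 estimate of the spread, and the first call was lost without VAD *Stra6-/-* replicate 2 or 4 or VAS *Stra6-/-* replicate 1, 2 or 5, with adjusted p up to 0.058. Against VAD WT replicates 1, 3 and 5 only, the log2 fold change was -0.66. The 2 genes are close paralogs and *Slc25a5* has a pseudogene, so how RSEM divided their shared reads could move both values.

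The ratio of the 2 exchangers within each library removes the size factor. The log2 ratio of *Slc25a4* to *Slc25a5* was 0.09 ± 0.07 in VAS WT, 0.09 ± 0.06 in VAS *Stra6-/-* and 1.14 ± 0.03 in the libraries labelled VAD *Stra6-/-* (mean ± SD, n = 5). It differed by 1.05 between the *Stra6-/-* groups and by 1.17 from VAD WT (exact two-sided permutation test, p = 0.00794, the smallest that 5 against 5 allows, adjusted p = 0.0136 over 12 tests). In VAD WT it was -0.03 ± 0.51, with replicates 2 and 4 at 0.51 and 0.56 and replicates 1, 3 and 5 between -0.44 and -0.37. It differed from VAS WT by -0.11 (exact permutation test, adjusted p = 0.676), and by -0.49 with replicates 1, 3 and 5 only.

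**Figure D3:**
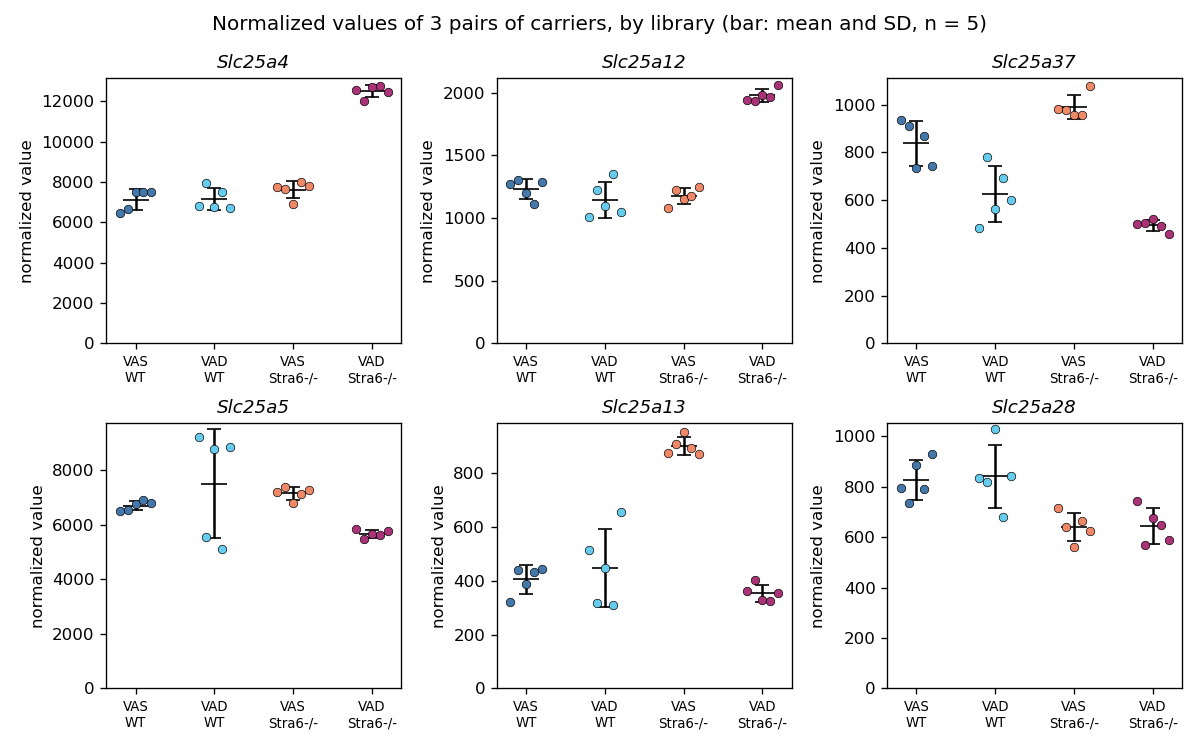
Normalized values of 3 pairs of related carriers in each library (points), with the mean and SD of each group of 5 (bars). *Slc25a4* and *Slc25a12* are highest in the libraries labelled VAD *Stra6-/-*, *Slc25a13* and *Slc25a37* in VAS *Stra6-/-*, and VAD WT is split into 2 and 3 libraries for *Slc25a5*.

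The other adenine nucleotide and phosphate carriers split as well. *Slc25a3* was higher by 0.29 (SE 0.06) against VAS *Stra6-/-* and by 0.48 (SE 0.06) against VAD WT in the libraries labelled VAD *Stra6-/-*, without overlap in either case. Of the calcium-regulated ATP-Mg/phosphate carriers, which adjust the adenine nucleotide pool of the matrix, *Slc25a24* fell, *Slc25a25* fell against VAS *Stra6-/-* and *Slc25a23* rose. *Slc25a24* (chr3:109123149-109168457, plus strand) had values of 1162, 1180, 1276, 1027 and 923 in VAS WT, 805, 736, 641, 761 and 803 in VAD WT, 1659, 1619, 1774, 1540 and 1604 in VAS *Stra6-/-* and 385, 493, 442, 512 and 375 in the libraries labelled VAD *Stra6-/-*. The 4 groups did not overlap with each other, in the order VAS *Stra6-/-*, VAS WT, VAD WT and VAD *Stra6-/-*. Its log2 fold change was 0.56 in VAS *Stra6-/-* against VAS WT (SE 0.10, limma adjusted p = 0.0002) and -0.57 in VAD WT against VAS WT (SE 0.10, limma adjusted p = 0.000694). It was -1.90 in VAD against VAS *Stra6-/-* (SE 0.10, limma adjusted p = 6.86e-13) and -0.77 against VAD WT (SE 0.10, limma adjusted p = 1.01e-06). *Slc25a24* was the single carrier that passed in all 4 comparisons, and the single one called without overlap between VAD WT and VAS WT, where 5.54% of all genes were called without overlap. In the *Stra6-/-* groups it was high and low where the summed surface-epithelium markers were. Every VAD WT library had less *Slc25a24* than any of VAS WT, while the marker sum was 399542 to 1163350 against 615736 to 747880. The part of these markers in the result was not tested.

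*Slc25a25* was higher by 0.64 (SE 0.10) in VAS *Stra6-/-* and by 0.36 (SE 0.10) in VAD WT, both against VAS WT, and lower by -0.50 (SE 0.10) in VAD against VAS *Stra6-/-*. Its exons overlap those of the antisense *Naif1*, and the strand setting of the counting is not given in the sources used here, so the reads of the 2 genes cannot be told apart. The same holds for *Slc25a11* and *Rnf167*, *Slc25a18* and *Atp6v1e1*, *Slc25a21* and *Pax9*, *Slc25a26* and *Lrig1*, and *Slc25a35* and *Rangrf*. *Slc25a41*, a short ATP-Mg/phosphate carrier, was at 0 in all 5 libraries labelled VAD *Stra6-/-* and at 9.49 ± 6.46 in VAD WT. This is at least 3.40-fold lower, taking 3 reads per library as the floor.

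Of the aspartate-glutamate carriers of the malate-aspartate shuttle, *Slc25a13* rose in VAS *Stra6-/-*, and *Slc25a12* was highest in the libraries labelled VAD *Stra6-/-*. Per kilobase of exon, *Slc25a13* was at 237 and *Slc25a12* at 160 in VAS *Stra6-/-*, against 107 and 168 in VAS WT. *Slc25a13* (citrin, the isoform of liver, chr6:6041218-6217173, minus strand) had values of 321, 442, 387, 433 and 445 in VAS WT and 876, 911, 954, 894 and 872 in VAS *Stra6-/-*, with a log2 fold change of 1.16 (SE 0.16, limma adjusted p = 9.84e-06). In the libraries labelled VAD *Stra6-/-* it was back at 362, 403, 329, 326 and 354, within the VAS WT range and lower than VAS *Stra6-/-* by -1.35 (SE 0.16, limma adjusted p = 2.13e-07). In VAD WT replicates 1, 3 and 5 had 514, 448 and 656 and replicates 2 and 4 had 318 and 309. *Slc25a12* (aralar, the isoform of brain and muscle, chr2:71271063-71367749, minus strand) had 1270, 1305, 1199, 1109 and 1286 in VAS WT, 1008, 1226, 1095, 1351 and 1048 in VAD WT and 1079, 1221, 1151, 1177 and 1251 in VAS *Stra6-/-*, which overlapped. It had 1944, 1938, 1986, 1965 and 2062 in the libraries labelled VAD *Stra6-/-*, above all others (log2 fold change 0.75 against VAS *Stra6-/-*, SE 0.07, limma adjusted p = 2.11e-08, and 0.80 against VAD WT, SE 0.07, limma adjusted p = 9.13e-09).

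The log2 ratio of *Slc25a12* to *Slc25a13* was 1.61 ± 0.23 in VAS WT, 1.40 ± 0.62 in VAD WT, 0.38 ± 0.10 in VAS *Stra6-/-* and 2.48 ± 0.14 in the libraries labelled VAD *Stra6-/-*. It differed by -1.23 between the VAS genotypes, by 2.10 between the *Stra6-/-* diets and by 1.08 between the VAD genotypes (exact permutation test, p = 0.00794 and adjusted p = 0.0136 for each). Between VAD WT and VAS WT the difference was -0.21 (exact permutation test, adjusted p = 0.635), and -0.63 with replicates 1, 3 and 5 only.

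The oxoglutarate-malate carrier *Slc25a11*, the partner of these carriers in the shuttle, was lower by -0.21 (SE 0.06) in VAS *Stra6-/-* against VAS WT. It was higher by 0.76 (SE 0.06) and 0.71 (SE 0.06) in the libraries labelled VAD *Stra6-/-* against VAS *Stra6-/-* and VAD WT, where it had 2328 to 2578 against 1367 to 1780 in all other libraries. The citrate carrier *Slc25a1* was lower by -0.40 (SE 0.10) in VAD against VAS *Stra6-/-*, and the dicarboxylate carrier *Slc25a10* was not called in any comparison.

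Of the other amino acid carriers, *Slc25a22*, a glutamate carrier, was lower in *Stra6-/-* than in WT on both diets. It had 1508, 1557, 1352, 1282 and 1603 in VAS WT, 1643, 1857, 1366, 1615 and 1447 in VAD WT, 878, 1000, 893, 1023 and 947 in VAS *Stra6-/-* and 863, 965, 919, 887 and 821 in the libraries labelled VAD *Stra6-/-*. No *Stra6-/-* library reached the lowest WT library. The log2 fold change was -0.62 on VAS (SE 0.08, limma adjusted p = 1.09e-05) and -0.82 on VAD (SE 0.08, limma adjusted p = 3.32e-08), and the difference between the diets did not pass in WT (0.12, SE 0.08) or in *Stra6-/-* (-0.09, SE 0.08). *Slc25a15*, the ornithine carrier of the urea cycle, had 482, 350, 426, 409 and 468 in the libraries labelled VAD *Stra6-/-* and 160 to 285 in all other libraries (log2 fold change 0.73, SE 0.14, against VAS *Stra6-/-*, and 0.99, SE 0.14, against VAD WT). *Slc25a44*, which carries branched-chain amino acids, was higher there by 0.42 (SE 0.14) and 0.65 (SE 0.14). *Slc25a2*, a second ornithine carrier, was called lower against VAD WT, but it was at or under 3 reads in 3 of the 5 libraries labelled VAD *Stra6-/-* and in 1 of 5 VAD WT libraries, and no fold is given.

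**Figure D4:**
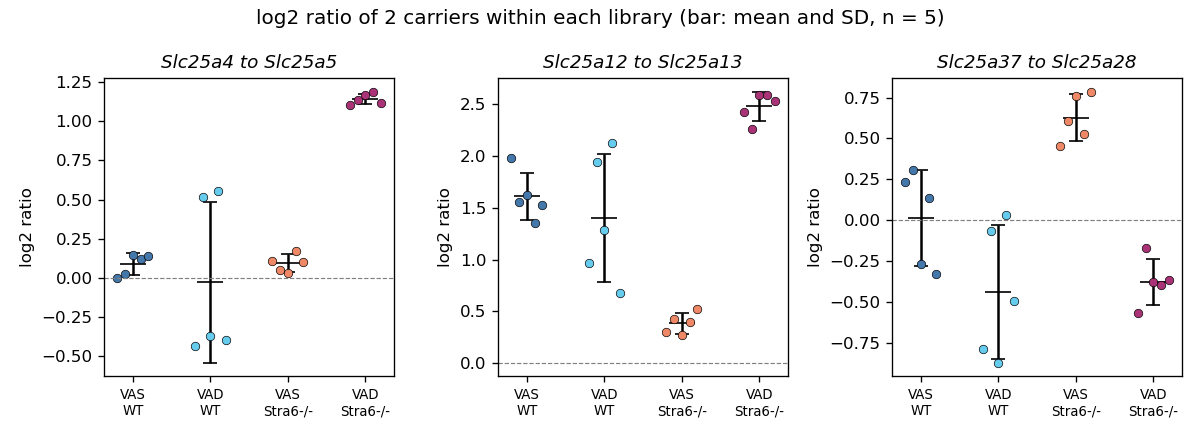
log2 ratio of the normalized values of 2 related carriers within each library (points; bars, mean and SD of 5; dashed line, equal values). The libraries labelled VAD *Stra6-/-* stand above all others for *Slc25a4* to *Slc25a5* and *Slc25a12* to *Slc25a13*, and VAS *Stra6-/-* stands above all others for *Slc25a37* to *Slc25a28*.

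The mitoferrins, which import iron for heme and iron-sulfur clusters, followed different patterns. *Slc25a37* (mitoferrin-1, the isoform of red cell precursors, chr14:69241848-69285112, minus strand) had 936, 908, 734, 868 and 741 in VAS WT, 483, 782, 562, 694 and 601 in VAD WT, 980, 976, 955, 958 and 1078 in VAS *Stra6-/-* and 501, 503, 519, 492 and 458 in the libraries labelled VAD *Stra6-/-*. Every VAS library lay above every library of the VAD *Stra6-/-* label. The log2 fold change of VAD against VAS was -1.0 in *Stra6-/-* (SE 0.10, limma adjusted p = 4.85e-08) and -0.44 in WT (SE 0.10, limma adjusted p = 0.0101). The latter was lost when only the 2 groups were fitted (limma adjusted p = 0.133). *Slc25a28* (mitoferrin-2, chr19:43663801-43674881, minus strand) had 796, 734, 885, 791 and 932 in VAS WT, 835, 820, 1029, 680 and 845 in VAD WT, 715, 641, 563, 666 and 626 in VAS *Stra6-/-* and 743, 567, 675, 649 and 590 in the libraries labelled VAD *Stra6-/-*. It was lower in *Stra6-/-* than in WT, at 642 ± 55.6 against 828 ± 79.4 on VAS (log2 fold change -0.36, SE 0.10, limma adjusted p = 0.0109, n = 5) and 645 ± 69.7 against 842 ± 124 on VAD (-0.38, SE 0.10, limma adjusted p = 0.0034). Their log2 ratio rose by 0.61 in VAS *Stra6-/-* and fell by 1.00 from VAS to VAD in *Stra6-/-* (exact permutation test, adjusted p = 0.0136 for both). Between VAD WT and VAS WT the difference of -0.45 did not pass (exact permutation test, adjusted p = 0.131), and it was -0.73 with replicates 1, 3 and 5 only. The summed value of 5 erythroid markers was 5877 to 6695 in VAS WT, 3175 to 45389 in VAD WT, 13034 to 14673 in VAS *Stra6-/-* and 21914 to 31285 in those labelled VAD *Stra6-/-*, and its part in these values was not tested.

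Of the glutathione carriers, *Slc25a39* and its paralog *Slc25a40* both rose from VAS to VAD under the *Stra6-/-* label. *Slc25a40* had 159, 111, 92.5, 106 and 98.4 in VAS *Stra6-/-* and 305, 226, 203, 217 and 255 in the libraries labelled VAD *Stra6-/-*, a log2 fold change of 1.10 (SE 0.18, limma adjusted p = 2.06e-05) without overlap. It was lower by -0.59 (SE 0.18, limma adjusted p = 0.0177) in VAS *Stra6-/-* against the 155 to 175 of VAS WT, a call lost without VAS *Stra6-/-* replicate 3 (adjusted p = 0.0503). Against VAD WT, which overlapped, it was higher by 0.48 (SE 0.18), a call lost in 7 of 30 alternatives, among them edgeR and DESeq2 (adjusted p up to 0.12). *Slc25a39* had 2734 to 3430 in the libraries labelled VAD *Stra6-/-* and 1466 to 2309 in all others, with a log2 fold change of 0.58 (SE 0.09) against VAS *Stra6-/-* and 0.75 (SE 0.09) against VAD WT.

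Among the nucleotide and cofactor carriers, the largest rise was that of *Slc25a16* (chr10:62920633-62946498, plus strand), which has been linked to coenzyme A. It had 229, 244, 184, 177 and 244 in VAS WT and 246, 249, 235, 210 and 257 in VAS *Stra6-/-*. Replicates 2 and 4 of VAD WT had 356 and 359, and replicates 1, 3 and 5 had 173, 163 and 203. It had 782, 812, 757, 815 and 616 in the libraries labelled VAD *Stra6-/-*. The libraries labelled VAD *Stra6-/-* were above all others, with a log2 fold change of 1.65 against VAS *Stra6-/-* (SE 0.19, limma adjusted p = 1.9e-07) and 1.67 against VAD WT (SE 0.19, limma adjusted p = 1.66e-07). *Slc25a42*, which carries coenzyme A and adenosine phosphates, had 422, 432, 416, 471 and 539 there and 265 to 301 in VAS *Stra6-/-* (log2 fold change 0.69, SE 0.21), and was higher by 1.10 (SE 0.21, limma adjusted p = 9.82e-05) against VAD WT, whose replicates 2 and 4 had 374 and 311 and whose replicates 1, 3 and 5 had 139, 189 and 136.

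*Slc25a17*, the carrier of coenzyme A and NAD of peroxisomes, had lower values under the VAD *Stra6-/-* label, by -0.60 (SE 0.13) and -0.78 (SE 0.13). *Slc25a51*, the NAD carrier, was higher in *Stra6-/-* than in WT by 0.39 (SE 0.06) on VAS and 0.37 (SE 0.06) on VAD, without overlap in either. *Slc25a36*, a pyrimidine nucleotide carrier, was lower on VAD by -0.52 (SE 0.15) in WT, a call lost in 5 of 30 alternatives, and by -0.47 (SE 0.15) in *Stra6-/-*. *Slc25a20*, the carnitine-acylcarnitine carrier of fatty acid oxidation, had 614 to 762 in the libraries labelled VAD *Stra6-/-* and 381 to 522 in all others (log2 fold change 0.50, SE 0.09, and 0.65, SE 0.09). *Slc25a46*, an outer membrane protein of mitochondrial dynamics, was higher by 0.45 (SE 0.11) and 0.80 (SE 0.11).

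The 3 carriers named after the uncoupling proteins differed from each other. *Slc25a30* (chr14:75760117-75787037, minus strand), first described in kidney, was low throughout, with 1 library of VAS WT and 1 of VAD WT at or under 3 reads. It was at 21.6, 5.77, 8.75, 2.93 and 14.3 in VAS WT and 57.9, 47.2, 39.7, 56.6 and 54.3 in VAS *Stra6-/-*. It had 85.6, 111, 118, 117 and 56.7 in the libraries labelled VAD *Stra6-/-*, and 76.2 and 61.6 in replicates 2 and 4 of VAD WT against 5.89, 8.51 and 2.60 in replicates 1, 3 and 5. The log2 fold change was 2.40 in VAS *Stra6-/-* against VAS WT (SE 0.66, limma adjusted p = 0.00991), the largest rise among the carriers there, and 2.55 between the VAD genotypes (SE 0.66, limma adjusted p = 0.00251), where the groups overlapped. *Slc25a27* (UCP4, a carrier of brain) had 301, 340, 275, 368 and 328 in VAS WT, 250, 257, 228, 196 and 234 in VAS *Stra6-/-* and 112, 118, 155, 114 and 166 in the libraries labelled VAD *Stra6-/-*. It was lower by -0.82 (SE 0.16, limma adjusted p = 0.000202) from VAS to VAD in *Stra6-/-* and by -1.48 (SE 0.16, limma adjusted p = 9.89e-08) against the 267 to 487 of VAD WT. *Slc25a14* (UCP5, on chromosome X) was higher in the libraries labelled VAD *Stra6-/-*, with 242, 244, 182, 207 and 299 against 105 to 153 in VAS *Stra6-/-* (log2 fold change 0.83, SE 0.18, limma adjusted p = 0.000491) and 102 to 156 in VAD WT (0.91, SE 0.18, limma adjusted p = 0.000184).

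The largest changes between groups were those of *Slc25a48* (chr13:56438355-56474239, plus strand), one of the 7 members grouped here as having a less settled cargo. It had 223, 215, 209, 241 and 197 in VAS WT, 99.0, 103, 116, 116 and 54.6 in VAD WT, 728, 845, 742, 850 and 924 in VAS *Stra6-/-* and 12.1, 9.92, 22.5, 5.27 and 0 in the libraries labelled VAD *Stra6-/-*, the last at or under 3 reads. The 4 groups did not overlap, in the same order as those of *Slc25a24*. The log2 fold change was 1.91 in VAS *Stra6-/-* against VAS WT (SE 0.52, limma adjusted p = 0.00889), -6.80 in VAD against VAS *Stra6-/-* (SE 0.52, limma adjusted p = 3.3e-10) and -3.71 between the VAD genotypes (SE 0.52, limma adjusted p = 3.04e-06). The difference of -1.19 between VAD WT and VAS WT did not pass (SE 0.52, limma adjusted p = 0.179), although the libraries did not overlap. The cornea keratin gene *Krt12* was 2179 to 3433 in the libraries labelled VAD *Stra6-/-* and 271708 to 283743 in VAS *Stra6-/-*. It was 142834 to 194875 in VAS WT and 113908 to 400653 in VAD WT. The mean of *Krt12* was higher in VAD WT than in VAS WT (279050 against 165008), but VAD WT was split. The summed surface-epithelium markers were 404715 and 399542 in VAD WT replicates 2 and 4, below the 615736 to 747880 of VAS WT. They were 1132170 to 1163350 in replicates 1, 3 and 5, above VAS WT. *Slc25a48* was lower in every VAD WT library than in any of VAS WT. As in any bulk tissue, fewer cells of a type and less RNA per cell cannot be told apart, and the part of the epithelium in these values was not tested.

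Of the same class, *Slc25a43* (on chromosome X) had 22.3 to 50.7 in VAS WT, 23.4 to 46.8 in VAS *Stra6-/-* and 0 to 9.66 in the libraries labelled VAD *Stra6-/-*, of which 1 was at or under 3 reads (log2 fold change -2.80, SE 0.54, limma adjusted p = 0.00014, and -3.09, SE 0.54, against the 14.4 to 76.6 of VAD WT). *Slc25a34* had 90.3, 126, 102, 102 and 130 in VAS WT and 269, 258, 245, 240 and 244 in VAS *Stra6-/-* (log2 fold change 1.19, SE 0.40, limma adjusted p = 0.0313). These 2 groups did not overlap, yet the call was lost in 8 of the 20 fits that left out 1 library, with adjusted p up to 0.0691. In VAD WT *Slc25a34* had 305 and 295 in replicates 2 and 4 and 90.8, 80.9 and 31.2 in replicates 1, 3 and 5.

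**Figure D5:**
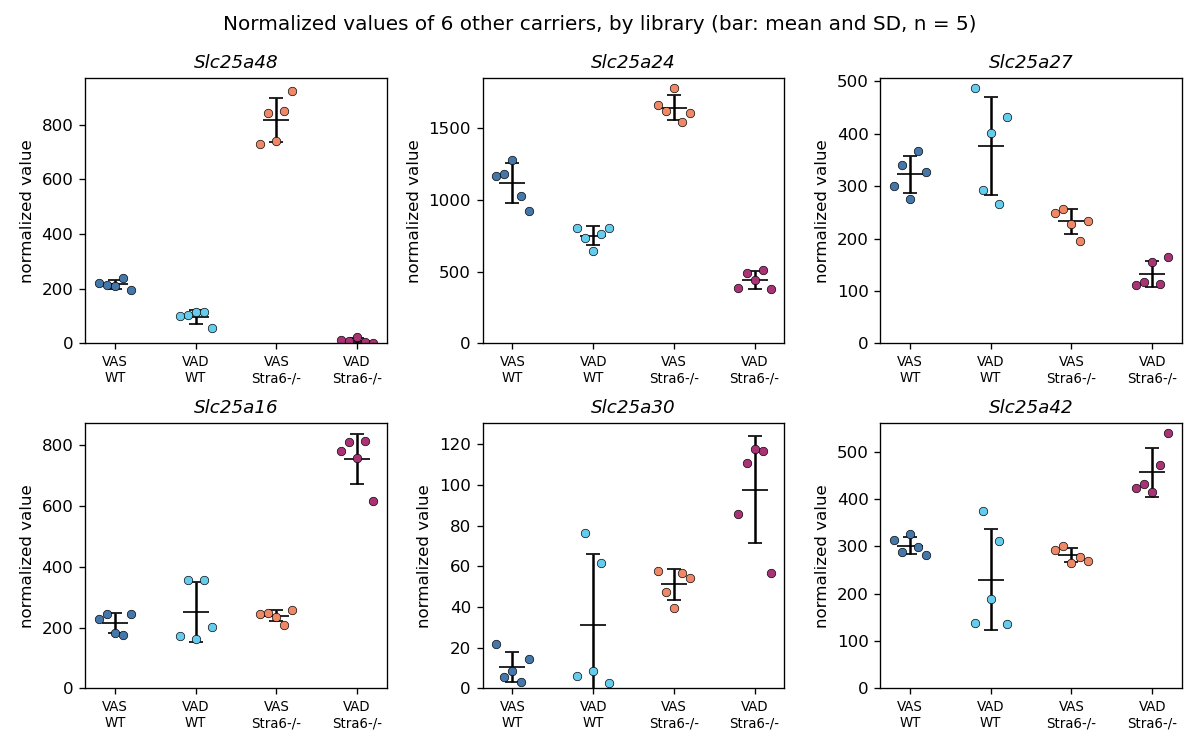
Normalized values of 6 carriers in each library (points), with the mean and SD of each group of 5 (bars; the lower end of the SD of *Slc25a30* in VAD WT lies under 0). *Slc25a48* and *Slc25a24* fall in the same order over the 4 groups, *Slc25a16* is highest in the libraries labelled VAD *Stra6-/-*, and the VAD WT libraries are split into 2 and 3 libraries for *Slc25a16*, *Slc25a30* and *Slc25a42*.

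The proximal promoters of the carriers with the largest rise and the largest fall between the *Stra6-/-* groups are shown to set the 2 extremes side by side. They are the 250 bases before the RefSeq start on GRCm38.p6, plus strand, chr10:62920383-62920632 for *Slc25a16* and chr13:56438105-56438354 for *Slc25a48*, in lower case throughout because neither holds a match to the 3 motifs searched.
Slc25a16: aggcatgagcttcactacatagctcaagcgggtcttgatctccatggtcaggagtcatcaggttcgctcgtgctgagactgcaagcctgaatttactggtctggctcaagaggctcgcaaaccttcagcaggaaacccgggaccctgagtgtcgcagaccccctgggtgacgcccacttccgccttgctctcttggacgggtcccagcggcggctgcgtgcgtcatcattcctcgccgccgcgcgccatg
Slc25a48: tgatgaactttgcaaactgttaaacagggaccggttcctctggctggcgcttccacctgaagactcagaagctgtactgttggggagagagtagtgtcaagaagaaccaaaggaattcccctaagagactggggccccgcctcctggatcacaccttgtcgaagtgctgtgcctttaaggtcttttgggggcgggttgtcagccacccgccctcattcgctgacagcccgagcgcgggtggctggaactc
The *Slc25a16* window holds 18 CpG dinucleotides and that of *Slc25a48* holds 10, where the median was 12 over the windows of carriers and 6 over all windows. Of the 46 carriers, 35 were matched to 45 windows of this length among 32851 in all. The motifs were searched on both strands and do not contain one another. The ETS motif CCGGAAG was in 5 (11.1%, *Slc25a3*, *Slc25a4*, *Slc25a17*, *Slc25a20* and *Slc25a38*) and 6.91%. The estrogen-related receptor motif AAGGTCA was in 1 (*Slc25a34*) and 4.08%, and the TATA motif TATAAA was in 2 (*Slc25a18* and *Slc25a21*) and 12.4%. Of the 5 carriers with the ETS motif, *Slc25a3*, *Slc25a4* and *Slc25a20* were higher in the libraries labelled VAD *Stra6-/-* in both comparisons, *Slc25a17* was lower in both and *Slc25a38* was called in neither.

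By role, the adenine nucleotide and phosphate carriers had 3 higher and 3 lower of 8 in each of the 2 comparisons that share the libraries labelled VAD *Stra6-/-*. The 9 nucleotide and cofactor carriers had 4 higher and 2 lower in each. The 9 amino acid carriers had 3 higher and 1 lower against VAS *Stra6-/-*, and 3 higher and 2 lower against VAD WT. The 7 carriers of less settled cargo had 1 higher and 2 lower, and 2 higher and 4 lower, in the same order. Over all genes, 24.5% were called higher and 28.9% lower against VAS *Stra6-/-*, and 26.3% and 29.7% against VAD WT. The classes are small and their shares were not tested against these.

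With VAD WT limited to replicates 1, 3 and 5, 19 carriers were higher and 15 lower in the libraries labelled VAD *Stra6-/-* against VAD WT, beside 63.4% of all genes called. Of the 34 called with all 5 libraries, 31 were called in the same direction, and the log2 fold change of 23 of these moved by less than 0.3. The 8 that moved further were all larger in size without replicates 2 and 4, among them *Slc25a30* at 3.95, *Slc25a16* at 2.07, *Slc25a42* at 1.56 and *Slc25a43* at -3.75. *Slc25a23* was 1.12 in place of 0.71. Among those that moved less, *Slc25a4* was 0.89, *Slc25a12* 0.91, *Slc25a24* -0.77, *Slc25a27* -1.74 and *Slc25a48* -3.57. The log2 ratios differed from VAD WT by 1.55 (*Slc25a4* to *Slc25a5*), 1.5 (*Slc25a12* to *Slc25a13*) and 0.34 (*Slc25a37* to *Slc25a28*). The calls of *Slc25a37* (-0.14), *Slc25a40* (0.39) and *Slc25a21* (1.07) were lost. That of *Slc25a37* was also lost when only the 2 groups were fitted, and that of *Slc25a5* was lost there and without VAD WT replicate 1, 3 or 5 (limma adjusted p up to 0.122). In VAD WT against VAS WT, 3 of the 5 calls were in the same direction and those of *Slc25a25* (0.17) and *Slc25a39* (-0.13) were lost.

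The effect of the diet differed between the genotypes for 23 carriers by the interaction term, 14 with a more positive and 9 with a more negative diet effect in *Stra6-/-* (50%, beside 44.4% of all genes, 19.6% more positive and 24.9% more negative). An interaction beyond 1 was called for 10 carriers and for 24.6% of all genes. The most positive was that of *Slc25a53* (1.62, SE 0.57), a low gene on chromosome X, followed by *Slc25a16* (1.51, SE 0.27) and *Slc25a14* (1.28, SE 0.25). The most negative were those of *Slc25a48* (-5.61, SE 0.73), *Slc25a43* (-3.10, SE 0.76) and *Slc25a13* (-1.44, SE 0.22). The carriers with an opposite diet effect in the 2 genotypes, both called, numbered 2. *Slc25a39* was lower by -0.29 on VAD in WT and higher by 0.58 in *Stra6-/-*, and *Slc25a25* was higher by 0.36 in WT and lower by -0.50 in *Stra6-/-*. The calls in WT were lost in 17 and 7 of 30 alternatives, respectively.

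Outside the family, 75 listed genes of mitochondrial transport, shuttles, the tricarboxylic acid (TCA) cycle, fatty acid entry, biogenesis and carrier import were examined, of which 73 were tested. In VAS *Stra6-/-* against VAS WT 12 were higher and 4 lower (15.9% and 10.8% of all genes), and in VAD WT against VAS WT 4 and 3 (3.29% and 5.52%). In the libraries labelled VAD *Stra6-/-* 37 were higher and 14 lower against VAS *Stra6-/-*, beside 24.5% and 28.9% of all genes, and 34 and 13 against VAD WT, beside 26.3% and 29.7%. All 4 enzymes of the malate-aspartate shuttle were higher there in both comparisons, among them *Mdh1* by 0.80 (SE 0.06) and 0.85 (SE 0.06) and *Got1* by 1.00 (SE 0.18) and 1.19 (SE 0.18). Of 16 TCA cycle enzymes, 14 were higher and 1 lower against VAS *Stra6-/-*, and 13 and 1 against VAD WT. The lower one was citrate synthase *Cs*, by -0.75 (SE 0.12) and -0.55 (SE 0.12). *Cpt2*, the carnitine palmitoyltransferase of the inner membrane that works with *Slc25a20*, was higher by 1.35 (SE 0.09) and 1.44 (SE 0.09). *Mcu*, the pore of the calcium uniporter, was lower by -1.23 (SE 0.12) and -1.12 (SE 0.12). *Ppargc1a*, a coactivator of mitochondrial biogenesis, was higher by 1.36 (SE 0.27) and 2.5 (SE 0.27). Of the uncoupling proteins proper, which belong to the same carrier superfamily under other symbols, *Ucp2*, the most abundant of the 3, was 10131 ± 558 in VAS WT, 9274 ± 738 in VAD WT, 16034 ± 492 in VAS *Stra6-/-* and 12201 ± 418 in the libraries labelled VAD *Stra6-/-* (n = 5). It rose by 0.66 in VAS *Stra6-/-* (SE 0.07, limma adjusted p = 4.17e-07). *Ucp3*, an uncoupling protein of muscle, rose in VAS *Stra6-/-* from 55.7 ± 25.0 to 289 ± 16.6 (n = 5, log2 fold change 2.44, SE 0.28, limma adjusted p = 1.74e-06). It was also higher by 1.10 (SE 0.28) in VAD WT against VAS WT, where the groups overlapped, and lower by -1.31 (SE 0.28) in VAD against VAS *Stra6-/-*. *Ucp1*, that of brown fat, was near 0 in all groups.

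Markers of other tissues moved with these comparisons. In VAS *Stra6-/-* against VAS WT, 11 of 12 skeletal muscle markers were higher, with a summed value of 34811 to 39019 against 13679 to 16291, and all 5 cone markers were lower, at 567 to 630 against 2215 to 2809. In VAD WT the muscle sum was 4384 to 4482 in replicates 1, 3 and 5 and 15254 and 16230 in replicates 4 and 2. In the libraries labelled VAD *Stra6-/-* the muscle sum was 22530 to 27241, with 6 of 12 markers lower against VAS *Stra6-/-* and 11 higher against VAD WT. All 9 surface-epithelium markers were lower there in both comparisons, while 8 of 9 RPE markers and all 5 macrophage and 5 melanocyte markers were higher, and 5 and 4 of 5 fibroblast markers. The summed RPE markers were 494803 to 539155 there, 109354 to 125448 in VAS WT, 112801 to 118890 in VAS *Stra6-/-* and 30082 to 55366 in VAD WT. Apart from the 2 Y-linked genes named, 1 muscle marker in VAD WT was the single marker at 0 in all libraries of a group. Their part in the changes of the carriers was not tested. In VAS *Stra6-/-* against VAS WT, the Y-linked genes were lost and *Xist* was high, so genotype and sex cannot be told apart there. The same VAS *Stra6-/-* libraries stand in VAD against VAS *Stra6-/-* and in the interaction. In VAD against VAS *Stra6-/-*, 4 of 5 sex-linked genes were called higher. Diet and sex thus cannot be told apart in *Stra6-/-* either, nor in the interaction. The X-linked carriers *Slc25a5*, *Slc25a14*, *Slc25a43* and *Slc25a53* were not called in VAS *Stra6-/-* against VAS WT, which says nothing of carriers on other chromosomes. In VAD against VAS *Stra6-/-*, where 53.4% of all genes were called, *Slc25a5* (-0.33), *Slc25a14* (0.83) and *Slc25a43* (-2.80) were called. *Slc25a53* was not called there, but it was in the interaction (1.62). The part of sex in these calls was not tested.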

How the data were processed

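Per the labels, total RNA of the RPE-choroid was extracted, from which, per the study's methods, poly(A) RNA was taken for sequencing. The authors aligned reads to GRCm38 with STAR 2.5.3a, counted them with RSEM 1.2.30 and deposited, as signal, gene counts divided by 1 DESeq2 1.32.0 size factor per library, without length or log scaling. Values of 19 libraries were whole multiples of 1 step (100% within 0.001 reads), which returned the reads. The step of VAD *Stra6-/-* replicate 1 was too near 1, so that library entered no count test. Tests used limma 3.58.1 in R 4.3.3 with an intensity trend and 4 group means. Ratios were compared with exact permutation tests (scipy 1.17.1). Members, lists and tests were chosen with earlier results of these data known. Values per library are given for the 3 pairs and, per comparison and direction, the 3 largest non-overlapping changes with a group mean of at least 50, except 1 that is not reported here. Replicate numbers did not pair libraries: 30 correlations of same-numbered libraries' deviations ran from -0.134 to 0.0948, and none passed 0.1. Exon lengths came from the GRCm38 annotation and promoters from RefSeq. On simulated data for VAS *Stra6-/-* against VAS WT over 18119 genes, limma recovered 194 of 200 changed genes with 8 false calls. The simulation gave all genes the same dispersion, changed no low genes and held no split within VAD WT. Its recovery rate therefore need not hold for small changes, for low genes or for the spread of these data. Alternatives were edgeR 4.0.16 on the recovered reads of 19 libraries, which called 4888, 1530, 9462 and 9945 genes in the 4 comparisons where limma called 5013, 1652, 10008 and 10509, DESeq2 1.42.0, other pseudocounts, scaling and filters, other sets of libraries, and leaving out each library.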

Additional observations from a re-analysis of the deposited data

Results flagged for a closer look

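By Dixon's test, 3 of 72 groups of values held a library far from the others, where chance gives about 1 in 20. *Slc25a37* was 1078 in VAS *Stra6-/-* replicate 5 against 955 to 980 in the others, *Slc25a48* was 54.6 in VAD WT replicate 5 against 99.0 to 116, and *Slc25a40* was 159 in VAS *Stra6-/-* replicate 1 against 92.5 to 111.

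The diet effect differed between the genotypes by limma's interaction term for 23 carriers, where a positive value is a more positive effect in *Stra6-/-*. The values on the log2 scale were 0.34 for *Slc25a3*, 0.71 for *Slc25a4*, 0.91 for *Slc25a11*, 0.87 for *Slc25a12*, 1.28 for *Slc25a14*, 0.68 for *Slc25a15* and 1.51 for *Slc25a16*. They were 0.54 for *Slc25a20*, 0.61 for *Slc25a23*, 0.87 for *Slc25a39*, 1.07 for *Slc25a40*, 1.2 for *Slc25a42*, 0.65 for *Slc25a46* and 1.62 for *Slc25a53*. The negative ones were -0.45 for *Slc25a5*, -1.44 for *Slc25a13*, -0.88 for *Slc25a17*, -1.33 for *Slc25a24*, -0.86 for *Slc25a25*, -1.01 for *Slc25a27*, -0.56 for *Slc25a37*, -3.10 for *Slc25a43* and -5.61 for *Slc25a48*. Those of *Slc25a5*, *Slc25a23* and *Slc25a53* were lost in 18, 17 and 1 of the alternatives.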

How the results depend on the processing

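Of 103 calls of a carrier in a comparison or the interaction, 82 held in every alternative that gave a value (30, or 29 for the interaction and *Slc25a41*), 21 were lost in some and none reversed, while 41 of 127 results not called were called in some. With only the groups compared, VAS *Stra6-/-* against VAS WT had 13 higher and 9 lower beside 43.8% of all genes called. VAD WT against VAS WT had 0 higher and 2 lower beside 3.36% of all genes called. There 10 carriers had an unadjusted p under 0.05 by limma, and 13 in the fit over all groups. With VAD WT limited to replicates 1, 3 and 5 the first had 12 higher among 20 called, beside 40.1% of all genes called. The second had 6 higher and 9 lower, beside 38% of all genes called, and its log2 ratios became -0.49 (*Slc25a4* to *Slc25a5*), -0.63 (*Slc25a12* to *Slc25a13*) and -0.73 (*Slc25a37* to *Slc25a28*). Replicates 2 and 4 were set aside because they stood apart in these same values, so these are given with no test. Under that limit *Slc25a34*, not called there with all libraries, reversed to -0.82 in VAD WT against VAS WT and to 0.83 in the interaction. Leaving out 1 library gave 6 to 8 higher and 4 to 7 lower in VAS *Stra6-/-* against VAS WT, 0 to 3 and 2 to 5 in VAD WT against VAS WT, 15 to 18 and 10 to 11 in VAD against VAS *Stra6-/-*, 18 to 20 and 12 to 16 between the VAD genotypes, and 13 to 16 and 8 to 10 for the interaction. With the replicate block, 7 and 6, 1 and 4, 16 and 11, 20 and 15, and 14 and 9 were higher and lower in the same order, although the numbers do not pair the libraries. Of all genes, 25.7%, 7.71%, 53%, 55.6% and 43.7% were called with that block. VAD WT against VAS WT had 2 higher with edgeR, 3 with DESeq2 and 2 with a mean of at least 10. The causes of these changes were not tested. Depth limits the low carriers: *Slc25a2*, *Slc25a18*, *Slc25a30*, *Slc25a31*, *Slc25a41*, *Slc25a43*, *Slc25a48* and *Slc25a53* had libraries at or under 3 reads.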
